A study of Mus musculus with 21 samples.

Results

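Gsta1, Gsta2, Gsta3, Adh7 and Aldh3a1 encode detoxification enzymes and were followed on every probe annotated to them, which gave 6 of the 25697 probes on the array. Gsta3 had 2 probes and each other gene had 1. The genes were chosen with their values on these arrays known, and the contrast behind the choice was not recorded. Their values are therefore given as a description with no test. The arrays measured RNA of dendritic cells grown from bone marrow of C57Bl6 mice, with 1 Illumina bead array for each of 21 samples. Cells were wild type (WT), relb-/- (lacking the NF-kB subunit RelB) or crel-/-relb-/- (lacking RelB and c-Rel). All 3 genotypes were sampled at 0 h without stimulation and at 1, 8 and 24 h of CpG (DNA sensed by TLR9) or of Pam3CSK4 (a lipopeptide sensed by TLR2 with TLR1). With 1 array for each genotype and condition there are no replicates. The labels do not say which cultures or animals the arrays share, and the doses of the agents are not given in the sources used here.

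Glutathione transferases join glutathione to electrophilic compounds, among them aldehydes made when lipids are oxidised, which makes these compounds more soluble and less reactive. Gsta1, Gsta2 and Gsta3 belong to the alpha class, which is abundant in liver. Adh7 is a class IV alcohol dehydrogenase that oxidises retinol and other alcohols to aldehydes. Aldh3a1 is an aldehyde dehydrogenase that oxidises aromatic and lipid-derived aldehydes to acids and is best known as an abundant protein of the cornea. Genes of these families are known targets of NRF2, the transcription factor that binds antioxidant response elements, and Aldh3a1 is also a known target of the aryl hydrocarbon receptor, which binds xenobiotic response elements.

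The promoter sequences of the genes that were high at late times are shown because those genes moved together across the arrays. They are RefSeq windows in build GRCm38.p6, from 250 bases before to 50 bases after a start point, and 4 of the 5 genes had an entry. In RefSeq's gene table of the same assembly, that point is the annotated start for Gsta1 and lies 20 bases inside the gene for Gsta3 and 47 for Gsta2. For Adh7 it lies 19709 bases inside the annotated gene, so the Adh7 window is not upstream of that gene's outer end. The windows are chr9:78230419-78230718 on the plus strand for Gsta1, chr9:78347096-78347395 on the minus strand for Gsta2, chr1:21240335-21240634 on the plus strand for Gsta3 and chr3:138217523-138217822 on the plus strand for Adh7. Capitals mark matches to the motifs searched.
Gsta1: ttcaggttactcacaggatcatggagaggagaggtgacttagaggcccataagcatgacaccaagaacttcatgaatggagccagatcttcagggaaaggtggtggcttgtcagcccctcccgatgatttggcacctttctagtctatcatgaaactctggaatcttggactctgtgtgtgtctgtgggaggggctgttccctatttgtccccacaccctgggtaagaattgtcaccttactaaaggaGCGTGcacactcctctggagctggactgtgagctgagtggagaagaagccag
Gsta2: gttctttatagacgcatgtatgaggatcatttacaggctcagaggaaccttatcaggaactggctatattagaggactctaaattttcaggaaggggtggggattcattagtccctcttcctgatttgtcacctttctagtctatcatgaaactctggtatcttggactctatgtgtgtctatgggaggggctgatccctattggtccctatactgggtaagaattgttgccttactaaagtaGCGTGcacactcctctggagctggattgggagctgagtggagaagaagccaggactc
Gsta3: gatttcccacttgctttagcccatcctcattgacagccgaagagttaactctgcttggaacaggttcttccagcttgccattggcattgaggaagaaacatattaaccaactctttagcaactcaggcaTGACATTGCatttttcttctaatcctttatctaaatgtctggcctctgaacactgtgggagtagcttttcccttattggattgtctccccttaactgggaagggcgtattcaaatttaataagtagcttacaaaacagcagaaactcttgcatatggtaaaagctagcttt
Adh7: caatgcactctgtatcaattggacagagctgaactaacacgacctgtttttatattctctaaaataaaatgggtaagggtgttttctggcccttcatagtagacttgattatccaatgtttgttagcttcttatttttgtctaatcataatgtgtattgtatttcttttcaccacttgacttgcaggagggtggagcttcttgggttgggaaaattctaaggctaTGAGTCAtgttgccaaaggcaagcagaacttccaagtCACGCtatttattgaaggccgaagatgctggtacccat
Positions are counted from 1 at the 5′ end of each window. Both strands were searched for the antioxidant response element core TGACNNNGC, which 12.4% of 32851 promoter windows of the same length hold, for the AP-1 site TGANTCA, held by 7.81%, for the xenobiotic response element core GCGTG, held by 32.4%, and for the kB consensus, held by 8.46%. Gsta3 held 1 antioxidant response element core at bases 130 to 138. Adh7 held 1 AP-1 site at bases 226 to 232 and 1 xenobiotic response element core on the minus strand at bases 263 to 267. The xenobiotic response element core stood at bases 249 to 253 in Gsta1 and at bases 244 to 248 in Gsta2. None of the 4 windows held the kB consensus, which says only that these letters are not in these windows. The windows of Gsta1 and Gsta2 were identical at 232 of 289 aligned bases, or 80.3%. Whether the probe of either gene also reads transcripts of the other was not tested.

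Intensities are the authors' normalized values on a linear scale. Their lowest value was 24.8, and background was taken to be still present in them. The median of all intensities was 47.3, and probes below it were taken as dim. The array medians lay between 47.1 and 47.4. The deleted genes were checked by their own probes. Relb measured between 148.3 and 267.0 in WT, between 65.9 and 152.7 in relb-/- and between 60.6 and 179.7 in crel-/-relb-/- cells. Within conditions it was below WT in 7 of 7 in both knockouts, although the pooled ranges overlapped. Rel stayed between 33.6 and 45.5 in crel-/-relb-/- cells and was at least 61.1 on all other arrays. Whether these probes lie in the deleted parts is not given. Of 12 dendritic cell markers, 11 exceeded 1.5 times the median on at least 1 array, and Flt3 did not. The array of crel-/-relb-/- cells given CpG for 24 h stood apart, with a residual SD of 0.189 (log2) against 0.0966 to 0.14 on the others. For the probes of Gsta1, Gsta2, Gsta3, Adh7 and Aldh3a1, mean differences that include that array are also given without it. Differences of other genes, medians of gene lists and marker sums are given only with it.

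**Figure D1:**
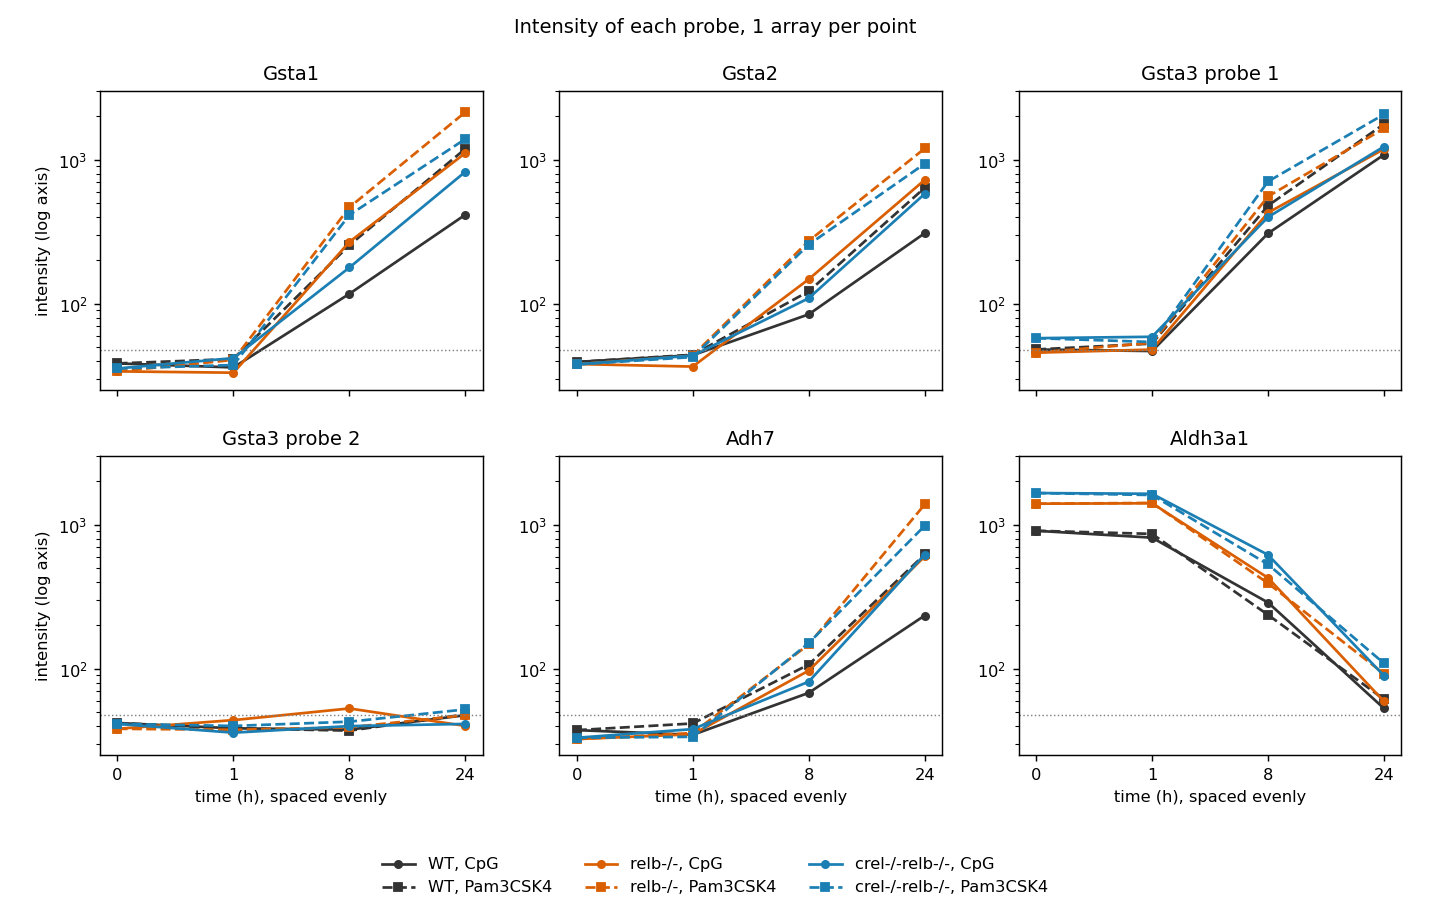
Intensity of each of the 6 probes (log scale) against hours of stimulation, for the 3 genotypes and both agents, 1 array per point with no error bar. Gsta1, Gsta2, Gsta3 probe 1 and Adh7 stood well above their 0 h level at 8 and 24 h, Aldh3a1 stood below it, and Gsta3 probe 2 stayed between 35.9 and 52.9.

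Gsta1, Gsta2, Gsta3 probe 1 and Adh7 were near the median of all intensities or below it at 0 and 1 h, above it at 8 h and higher again at 24 h, in every genotype and with both agents. Over the 6 combinations of genotype and agent, the log2 difference of 24 h from 0 h was 4.88 ± 0.85 for Gsta1, 4.13 ± 0.69 for Gsta2, 4.86 ± 0.36 for Gsta3 probe 1 and 4.24 ± 0.94 for Adh7 (mean ± SD, n = 6; without the array that stood apart 4.94, 4.17, 4.95 and 4.25). Aldh3a1 took the opposite course, at -4.11 ± 0.26 (SD, n = 6; -4.08 without that array). The 0 h levels of the late-high genes lay near or below the median of all intensities, so their differences are read as lower bounds in size and are not ranked against each other. Both agents are set against the same 3 arrays at 0 h, so the 6 combinations are not independent. All 4 late-high genes were at least 4-fold above 0 h in 6 of 6 combinations, as were 0.331% of the 10587 genes tested. Aldh3a1 was at least 4-fold below 0 h in 6 of 6, as were 0.151%. In bulk samples, fewer cells of a type and less RNA per cell cannot be told apart.

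Gsta1 measured between 33.1 and 41.8 on the 9 arrays at 0 and 1 h, with a median of 37.4. In WT cells it reached 117.0 with CpG and 254.8 with Pam3CSK4 at 8 h, and 415.0 and 1191.7 at 24 h. In relb-/- cells it was 268.5 and 466.9 at 8 h, and 1112.6 and 2142.3 at 24 h. All early arrays lay below the median of all intensities and all late arrays far above it, and how many of all genes do so was not counted. In crel-/-relb-/- cells the same 4 conditions gave 178.2, 412.9, 825.4 and 1393.2. The ratio of 24 h to 0 h ran from 10.8-fold in WT cells with CpG to 63.4-fold in relb-/- cells with Pam3CSK4. If background is still present in the values, such ratios understate the change.

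Gsta2, a close relative of Gsta1, was likewise high at 8 and 24 h and not before. It measured between 36.5 and 44.1 on the 9 early arrays, with a median of 42.5. With CpG and Pam3CSK4 at 8 h it was 84.2 and 121.6 in WT, 147.7 and 272.4 in relb-/- and 109.0 and 256.9 in crel-/-relb-/- cells. At 24 h the pairs were 308.5 and 638.2 in WT, 723.1 and 1196.4 in relb-/- and 578.8 and 937.4 in crel-/-relb-/- cells. The early and late ranges did not overlap, and the share of all genes that separate in this way was not counted.

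Adh7 was 1.82-fold to 4.55-fold above 0 h at 8 h and higher again at 24 h. It measured between 32.4 and 41.6 on the 9 early arrays, with a median of 35.0. At 8 h with CpG and Pam3CSK4 it was 67.9 and 106.8 in WT, 96.9 and 147.4 in relb-/- and 81.2 and 150.6 in crel-/-relb-/- cells. At 24 h it was 234.0 and 621.5 in WT, 602.3 and 1384.1 in relb-/- and 620.8 and 983.4 in crel-/-relb-/- cells. The ratio of 24 h to 8 h with the same agent ran from 3.45-fold to 9.39-fold for Adh7 and from 2.77-fold to 3.69-fold for Gsta3 probe 1, so the ranges overlapped.

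The Gsta3 probes disagreed. Probe 1 measured between 45.6 and 58.8 on the 9 early arrays, with a median of 52.7. At 8 h with CpG and Pam3CSK4 it was 307.4 and 479.2 in WT, 428.2 and 555.3 in relb-/- and 398.9 and 705.3 in crel-/-relb-/- cells. At 24 h it was 1082.9 and 1767.5 in WT, 1184.8 and 1648.0 in relb-/- and 1233.8 and 2065.9 in crel-/-relb-/- cells. At the late conditions the knockouts ran from 0.932-fold to 1.47-fold of WT. The late arrays were all far above the early ones, and how many of all genes separate so was not counted. Probe 2 of the same gene stayed between 35.9 and 52.9 on all 21 arrays, with a log2 difference of 24 h from 0 h of 0.18 ± 0.13 (SD, n = 6; 0.22 without the array that stood apart). Its third-highest value was 48.1, barely above the median of all intensities, so it passed the filter on dim probes narrowly and did not pass the stricter filter. Which Gsta3 transcripts each probe reads was not tested.

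Aldh3a1 was bright in resting cells and close to the median of all intensities at 24 h. On the 9 early arrays it measured between 813.3 and 1660.2, with a median of 1409.7, and the 1 h arrays lay within a log2 difference of -0.16 to 0.02 of their 0 h array. At 8 h with CpG and Pam3CSK4 it was 288.0 and 236.5 in WT, 427.4 and 392.0 in relb-/- and 617.5 and 530.4 in crel-/-relb-/- cells. At 24 h it was 52.9 and 61.3 in WT, 59.2 and 92.1 in relb-/- and 89.3 and 108.8 in crel-/-relb-/- cells. The 3 time classes did not overlap, a separation whose share over all genes was not counted. The 24 h level was lower than that at 0 h by 14.8-fold to 23.6-fold. All 24 h values were still above the median of all intensities, although by little in WT cells.

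Markers of several cell types moved with the same times. The dendritic cell markers summed to 20995 to 27642 at 0 and 1 h and to 15527 to 19096 at 24 h. The brightest of them was Cd74, at 8862.4 to 12481.7 early and 5804.0 to 8406.1 at 24 h. Of 11 tested, 6 were lower at 24 h, among them Irf4 at -1.38 and Itgax at -0.43. The 2 that were higher were Ccr7 at 0.86 and Irf8 at 0.31. Over all genes tested, 16.9% rose and 15.0% fell at 24 h. The 9 measured macrophage and monocyte markers summed to 21495 to 27396 early and to 30745 to 34323 at 24 h, with 4 higher, among them Adgre1 at 2.20 and Cd14 at 1.79, and Mrc1 lower at -2.54. Neither sum overlapped between early arrays and 24 h. How often single genes separate by time in this way was not counted.

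The 10 neutrophil markers did not move one way. Their summed intensity was 1222 to 2956 at 0 and 1 h, 6424 to 12413 at 8 h and 10850 to 25993 at 24 h, but that sum was carried by Lcn2, which was 384.7 to 555.0 early and 7235.2 to 20842.2 at 24 h, and by S100a8. At 24 h these 2 of the 8 tested were called higher, beside 16.9% of all genes, and 4 were called lower, beside 15.0%. Those lower were Cxcr2 at -2.01, S100a9 at -1.48, Ngp at -0.34 and Retnlg at -0.28. Camp, Elane and Mpo never exceeded 1.5 times the median, while Ltf reached 191.0 and Ngp 78.7. The summed intensity of 7 measured markers of eosinophils, mast cells and basophils was 960 to 1679 at 0 and 1 h, 530 to 956 at 8 h and 339 to 520 at 24 h, and Epx, Siglecf, Cpa3, Mcpt8 and Fcer1a never exceeded 1.5 times the median. The 8 measured epithelial markers summed to 647 to 857 early and to 398 to 418 at 24 h, a span carried by the cadherin Cdh1, which was 339.0 to 546.0 early, while the other 7 never exceeded 1.5 times the median. The 8 stromal and 5 hepatocyte markers never did so either. The part of these markers in the course of the 5 genes was not tested.

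**Figure D2:**
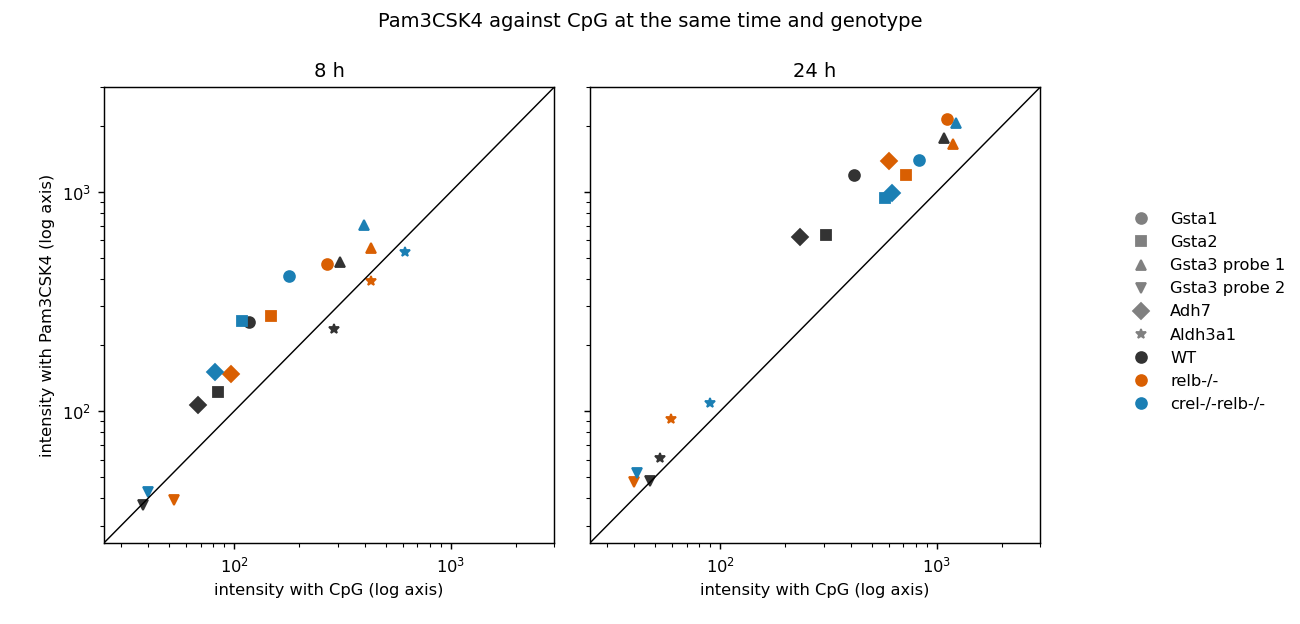
Intensity with Pam3CSK4 against intensity with CpG at 8 h (left) and 24 h (right), on log axes, 1 point per probe and genotype (symbols mark probes, colours genotypes), with the line of equality. Gsta1, Gsta2, Gsta3 probe 1 and Adh7 lay above the line in 6 of 6 pairs, and Aldh3a1 lay below it at 8 h and above it at 24 h.

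Pam3CSK4 gave higher levels of the late-high genes than CpG at the same time in every genotype. At 8 and 24 h the log2 difference of CpG from Pam3CSK4 was -1.06 ± 0.29 for Gsta1, -0.85 ± 0.26 for Gsta2, -0.63 ± 0.17 for Gsta3 probe 1 and -0.90 ± 0.33 for Adh7 (mean ± SD, n = 6; without the array that stood apart -1.12, -0.89, -0.60 and -0.95). Each of these was higher with Pam3CSK4 in 6 of 6 pairs, as were 4.0% of the genes tested. In WT cells at 24 h the ratio of Pam3CSK4 to CpG was 2.87 for Gsta1 and in relb-/- cells 1.93. Aldh3a1 averaged -0.08 ± 0.36 (SD, n = 6, and -0.04 without that array), and its pairs split by time. CpG was higher in all 3 genotypes at 8 h, and the share of genes for which it was so was not counted. Pam3CSK4 was higher in all 3 at 24 h, as it was for 15.4% of genes. Its 24 h levels were 52.9 to 108.8, the lowest of them close to the median of all intensities, so no reversal between agents is read from these pairs. At 1 h the mean difference from 0 h over both agents was 0.09 for Gsta1, 0.14 for Gsta2, 0.06 for Gsta3 probe 1 and 0.09 for Adh7 on the log2 scale.

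**Figure D3:**
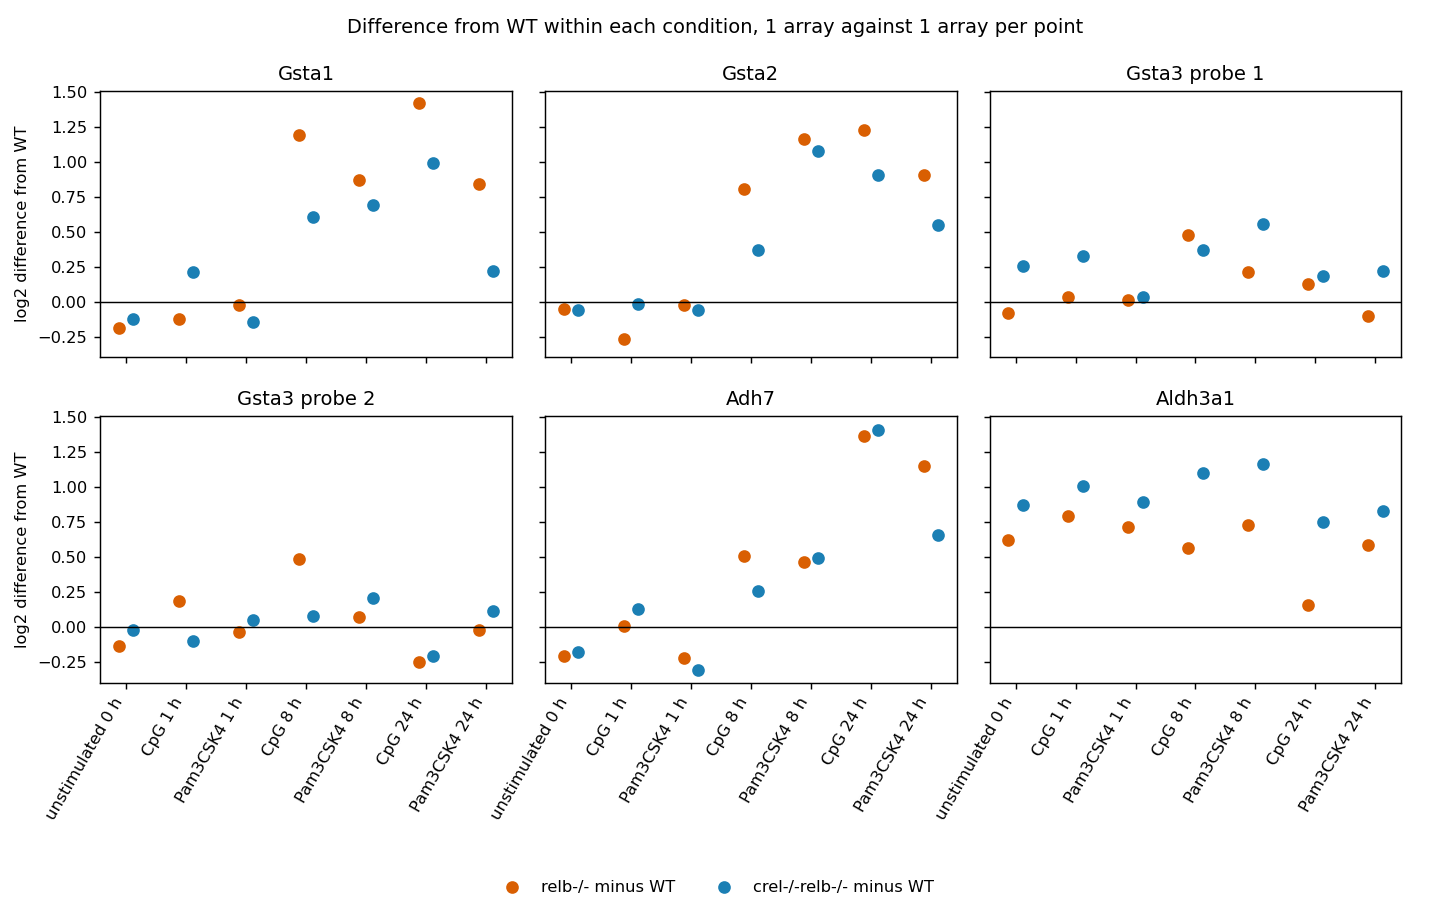
Log2 difference of each knockout from WT for each probe, 1 point (1 array against 1 array) for each of the 7 conditions on the horizontal axis. For Gsta1 and Gsta2 the points of relb-/- cells at 8 and 24 h lie between 0.81 and 1.42 and those at 0 and 1 h near 0, and for Aldh3a1 all points lie above 0.

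Cells lacking RelB had higher levels of Gsta1, Gsta2 and Adh7 than WT cells at late times, and a higher level of Aldh3a1 at all times. For relb-/- against WT at 8 and 24 h, the log2 difference was 1.09 ± 0.28 for Gsta1, 1.03 ± 0.20 for Gsta2 and 0.87 ± 0.45 for Adh7 (mean ± SD, n = 4 conditions). Each was higher in 4 of 4 late conditions, as were 12.4% of the genes tested. At 0 and 1 h the same difference was -0.11 ± 0.08 for Gsta1, -0.11 ± 0.13 for Gsta2 and -0.14 ± 0.13 for Adh7 (SD, n = 3), where all 3 genes were below the median of all intensities, so these early differences carry no direction. Gsta3 probe 1 differed less, at 0.18 ± 0.24 late, and was higher in 3 of 4 conditions. Aldh3a1 was higher in relb-/- cells in 7 of 7 conditions, as were 5.91% of genes, with a difference of 0.60 ± 0.21 (SD, n = 7).

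In crel-/-relb-/- cells the late difference from WT was 0.63 ± 0.32 for Gsta1, 0.73 ± 0.32 for Gsta2, 0.34 ± 0.17 for Gsta3 probe 1 and 0.71 ± 0.50 for Adh7 (SD, n = 4). Without the array that stood apart these were 0.51, 0.67, 0.39 and 0.47 over 3 conditions. All 4 were higher in 4 of 4 late conditions, as were 12.9% of genes. Averaged over all 7 conditions, the Adh7 difference was 0.35, and 0.18 without that array. Gsta3 probe 1 and Aldh3a1 were higher than in WT in 7 of 7 conditions, as were 6.56% of genes, by 0.28 ± 0.16 and 0.95 ± 0.15 (SD, n = 7; 0.30 and 0.98 without that array). On the early arrays Gsta3 probe 1 measured 45.6 to 58.8, near the median of all intensities, so its early differences carry no direction.

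Between the knockouts, Gsta1 and Gsta2 were higher in relb-/- cells and Aldh3a1 was higher in crel-/-relb-/- cells. At each of the 4 late conditions the order of Gsta1 and of Gsta2 was relb-/-, then crel-/-relb-/-, then WT. The late difference of crel-/-relb-/- from relb-/- was -0.46 ± 0.20 for Gsta1 and -0.30 ± 0.15 for Gsta2 (SD, n = 4; -0.46 and -0.29 without the array that stood apart). Both were lower in 4 of 4, as were 13.5% of genes. Adh7 had no fixed order between the knockouts, at -0.17 ± 0.26 (SD, n = 4; -0.24 without that array). Aldh3a1 was higher in crel-/-relb-/- than in relb-/- cells in 7 of 7 conditions, as were 8.45% of genes, by 0.35 ± 0.17 (0.31 without that array), which gave the order WT, relb-/-, crel-/-relb-/- at every condition. Comparisons that share an array set are not independent of each other. The summed eosinophil, mast cell and basophil markers at 0 and 1 h were 986 to 1017 in WT, 960 to 1061 in relb-/- and 1638 to 1679 in crel-/-relb-/- cells. The neutrophil markers at those times summed to 1222 to 1267 in WT, 1832 to 2050 in relb-/- and 2823 to 2956 in crel-/-relb-/- cells. That sum had the same order as Aldh3a1, but its single markers did not all follow it. S100a8 had the widest range of them on the early arrays, 339.0 to 1632.0. By limma over all 7 conditions, 5 of the 8 tested were higher and 2 lower in crel-/-relb-/- than in relb-/- cells. Of all genes tested, 10.5% were higher and 9.28% lower in that comparison. The neutrophil markers that were lower were Lcn2 at -0.504 and Retnlg at -0.323, and Lcn2 was also lower than in WT, at -0.291. The T and natural killer cell markers at 0 and 1 h summed to 629 to 661 in WT, 276 to 303 in relb-/- and 352 to 368 in crel-/-relb-/- cells. Of these 6 markers, limma called 5 lower in relb-/- than in WT cells and Klrd1 higher, at 0.339. The shares over all genes were 5.65% lower and 6.03% higher. The part of these markers in the genotype differences was not tested.

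Across the 21 arrays the late-high probes moved together on the log2 scale, as a description over points that share time course and normalization. Pearson's r was 0.991 between Gsta1 and Gsta2, 0.989 between Gsta2 and Adh7, 0.982 between Gsta1 and Gsta3 probe 1 and 0.936 between Gsta3 probe 1 and Adh7. Aldh3a1 ran against them, at -0.905 to -0.915, and Gsta3 probe 2 correlated weakly, at 0.559 with probe 1 of its own gene. Among all genes tested other than the 5, those most alike in pattern over the 21 arrays were Stap1 for Gsta1 (r = 0.974), Calr3 for Gsta2 (0.985) and for Adh7 (0.992), Clec4d for Gsta3 probe 1 (0.990) and Prg2 for Aldh3a1 (0.977). Genes of the pathway lists stood among the 5 most alike: Akr1b8 for Gsta1 (0.971), Gsta4 for Gsta2 (0.973) and for Adh7 (0.979), and Gstm1 and Nqo1 for Gsta3 (0.982 each). Gsta4, the remaining alpha-class transferase on the list, measured 39.7 to 46.2 at 0 and 1 h and 81.1 to 164.1 at 24 h. Prg2, the eosinophil major basic protein, measured 535.0 to 1032.5 early and 52.0 to 125.3 at 24 h.

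**Figure D4:**
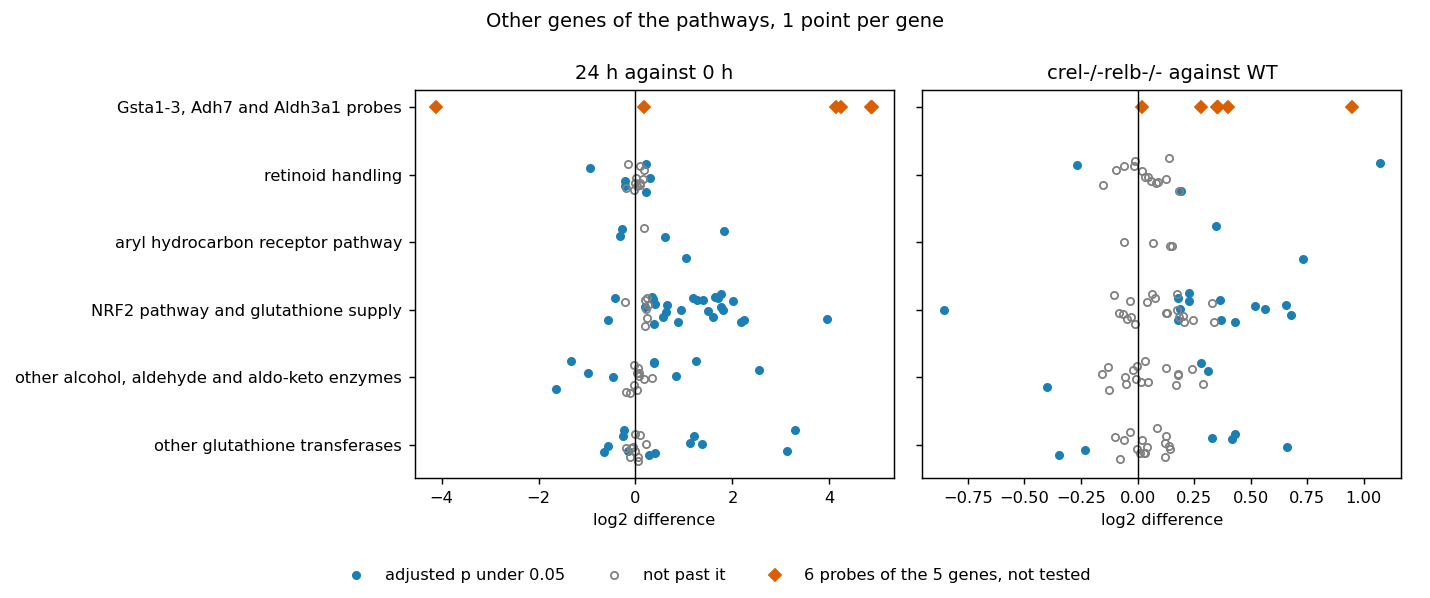
Log2 difference of each tested gene of the 5 lists (1 point per gene, filled where the adjusted p was under 0.05) at 24 h against 0 h (left) and in crel-/-relb-/- against WT (right), with the 6 probes of the 5 genes as diamonds. In the NRF2 and glutathione supply list 24 of 33 genes rose at 24 h, and Nqo1, at 3.94, is the point farthest to the right.

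Other genes of the same pathways were read from 5 lists that hold none of the 5 genes, 128 genes in all, of which 114 were on the array and 98 passed the filter on dim probes. The threshold for a call was 0.05 on the adjusted p (limma, Benjamini-Hochberg over 10587 genes). At 24 h against 0 h, 42 list genes rose and 16 fell, while 16.9% of all genes rose and 15.0% fell. At 8 h, 31 rose and 17 fell, beside 15.0% and 15.9% of all genes. At 1 h 6 rose and 0 fell, beside 0.831% and 0.283%, and all 6 belonged to the NRF2 list (at an unadjusted p under 0.05, 8 were higher and 4 lower). These 6 became 2 without the WT or without the relb-/- array at 0 h.

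In the list of NRF2 genes and enzymes that make and recycle glutathione, most of those tested rose. Of 33 tested, 20 rose and 0 fell at 8 h (15.0% and 15.9% of all genes), with a median log2 difference of 0.66, against 0.003 over all genes. At an unadjusted p under 0.05 the limma counts were 23 and 0. At 24 h 24 rose, 2 fell and 7 were not called, beside 16.9% and 15.0% of all genes, with a median of 0.65 against 0.005. Nqo1, a quinone reductase and a widely used NRF2 reporter gene, rose by 3.94 ± 0.13 at 24 h (log2 difference ± SE, adjusted p = 1.15e-15, higher in 6 of 6 combinations), from 49.1 to 96.6 at 0 and 1 h to 619.5 to 1250.1 at 24 h. Gclm, the modifier subunit of the enzyme that starts glutathione synthesis, rose by 2.24 ± 0.08 (adjusted p = 1.26e-14). Srxn1, sulfiredoxin, rose by 2.86 ± 0.10 at 8 h (adjusted p = 9.4e-15) and already by 0.61 at 1 h (adjusted p = 0.00134). Nfe2l2, which encodes NRF2, rose by 1.59 ± 0.18 at 24 h (adjusted p = 3.32e-07), and Slc7a11, the cystine transporter, by 1.76 ± 0.09 (adjusted p = 4.36e-12). The genes that fell at 24 h were Glrx2, a mitochondrial glutaredoxin, by 0.57, and Gpx3, the secreted glutathione peroxidase, by 0.43. Nfe2l2 and Slc7a11 were named after their values were seen.

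Among the 22 other glutathione transferases tested, 6 rose and 6 fell at 8 h and 7 rose and 5 fell at 24 h, with a median of 0.02. The shares over all genes were 15.0% and 15.9% at 8 h and 16.9% and 15.0% at 24 h. The mu-class genes Gstm1 and Gstm2 had log2 differences of 3.29 ± 0.11 and 3.13 ± 0.11 at 24 h (adjusted p = 3.72e-15 and 5.82e-15). Gsta4 rose by 1.38 ± 0.11 (adjusted p = 2.02e-09) and was chosen after its values were seen. Mgst3, a microsomal transferase, fell by 0.65 and Gstt2, of the theta class, by 0.57.

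Of 20 other alcohol, aldehyde and aldo-keto enzymes, 5 rose and 4 fell at 24 h, beside 16.9% and 15.0% of all genes, and 2 rose and 6 fell at 8 h, beside 15.0% and 15.9%. Apart from the falls at 8 h and the rises at 24 h, these counts lie near the shares over all genes. Akr1b8, an aldo-keto reductase that reduces aldehydes, rose by 2.55 ± 0.15 at 24 h (adjusted p = 1.73e-11), and Akr1a1, aldehyde reductase, by 1.26 ± 0.06 (adjusted p = 7.06e-13). Aldh18a1, an enzyme of proline synthesis, fell by 1.63 (adjusted p = 1.62e-08) and Aldh1a2, which makes retinoic acid from retinal, by 1.33 (adjusted p = 3.58e-07). Aldh1a2 measured 374.4 to 788.7 at 0 and 1 h and 174.5 to 269.5 at 24 h. Of the 6 tested genes of the aryl hydrocarbon receptor pathway, 3 rose and 2 fell at 24 h, beside 16.9% and 15.0% of all genes. Those that rose included Cyp1b1, a monooxygenase and known target of the receptor, at 1.82 ± 0.26 (limma, adjusted p = 8.55e-06). Ahrr, the repressor of the receptor, rose by 1.05 ± 0.13 (adjusted p = 2.65e-06). The falls were small, -0.32 for Arnt and -0.27 for Tiparp, and Tiparp measured 35.6 to 61.9, around the median of all intensities.

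Between genotypes, 7 list genes were higher and 8 lower in relb-/- than in WT cells, beside 6.03% and 5.65% of all genes. In crel-/-relb-/- cells 22 were higher and 5 lower than in WT, beside 7.65% and 7.74%, and 27 were higher and 3 lower than in relb-/- cells, beside 10.5% and 9.28%. The NRF2 list gave 12 higher and 1 lower in crel-/-relb-/- against WT, with a median of 0.18, and 4 higher and 3 lower in relb-/- against WT, with a median of 0.003. Txn1 and Txnrd1, the thioredoxin pair, were higher in both knockouts, each in 7 of 7 conditions. In relb-/- cells the differences were 0.60 and 0.59 (adjusted p = 0.00357 and 0.00086), and with c-Rel also absent they were 0.68 and 0.66 (adjusted p = 0.000901 and 0.000188). Bach1, a repressor of NRF2 target genes, was lower in crel-/-relb-/- cells by 0.86 (adjusted p = 6.72e-05, lower in 6 of 7). Gpx3 was lower in relb-/- than in WT by 0.48 and higher in crel-/-relb-/- than in relb-/- by 0.91, each in 7 of 7. Gstm1 was higher in crel-/-relb-/- than in WT by 0.66 (adjusted p = 1.59e-05). Gsta4 was not called in the genotype comparisons, with 0.17 for relb-/- against WT (adjusted p = 0.199) and 0.14 for crel-/-relb-/- against WT (adjusted p = 0.265). Genotype calls test whether a difference held over conditions, not its spread between animals. With genotype alone and no condition term in the fit, 1 list gene was called between relb-/- and WT, 4 between crel-/-relb-/- and WT and 5 between the knockouts.

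Between agents, 1 list gene was higher and 8 were lower with CpG than with Pam3CSK4, beside 0.916% and 1.34% of all genes. Slc7a11 was lower with CpG by 0.43 ± 0.06 and Txnrd1 by 0.45 ± 0.09, each in 9 of 9 pairs (adjusted p = 0.000399 and 0.0133). Akr1b8 was lower by 0.43 (adjusted p = 0.0239) and Keap1, which targets NRF2 for destruction, was higher by 0.25 (adjusted p = 0.0491). Of 22 other glutathione transferases 0 were called by limma (4 had an unadjusted p under 0.05, all lower with CpG), and Gsta4 was at -0.21 (adjusted p = 0.151, unadjusted p = 0.00845). These 9 calls became 3 without either of 2 crel-/-relb-/- arrays (1 h of CpG, 24 h of Pam3CSK4), and 5 without any of 7 others (WT at 8 h with CpG and 1 h with Pam3CSK4, relb-/- at 1 h with CpG and 8 h with Pam3CSK4, crel-/-relb-/- at 8 h with CpG and at 1 and 8 h with Pam3CSK4).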

How the data were processed

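RNA of 21 samples of bone marrow-derived dendritic cells was measured on Illumina mouse bead arrays after column extraction and biotin cRNA labelling, per the labels' protocols. The authors deposited normalized linear intensities, by a method not given in the sources used here. An unnormalized table was left out since its 21 columns of values match no sample's labels, and the treatment planned for unnormalized signals was run as an alternative on the deposited intensities. Groups came from the labels. The titles of the 0 h samples name CpG, but their agent label says unstimulated.

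Probes were named through the platform annotation with symbols updated by Entrez identifier (23962 of 25697 probes; 1719 stay unnamed). Values were log2 transformed. A probe passed when its 3rd highest value exceeded the median of all values, 47.3, which all 6 probes of the 5 genes did. Each gene was its brightest passing probe, which left 10587 of 16593 named genes. limma 3.58.1 in R 4.3.3 fitted genotype and condition additively to all arrays (12 residual degrees of freedom, intensity trend, two-sided, Benjamini-Hochberg adjusted), tested on simulated data first. With no replicate arrays, the residual holds the variation of an effect between genotypes and conditions together with array noise, which may be technical. These p-values measure a difference against that spread, not against the spread between animals or cultures. For the time comparisons the genotypes stand in for replicates. The list genes named are the 2 of largest difference per list, comparison and direction among those called, with exceptions stated, and the genes most alike in pattern are the 5 with the highest Pearson correlation. The genes and lists were chosen with earlier results of these data known. Promoter windows are those of RefSeq for GRCm38.p6. No genome build is stated for the probes. Alternatives covered background correction, normalization, the offset, the filter on dim probes, the rule for several probes, the trend, the condition term and leaving out each array. No detection p-values were used, and the number of arrays limits the precision.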

Additional observations from a re-analysis of the deposited data

Results flagged for a closer look

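The Gsta1 difference of relb-/- from WT was 1.09 ± 0.28 (SD) at 8 and 24 h, above 0 in 4 of 4 conditions, and -0.11 ± 0.08 (SD) at 0 and 1 h, a gap of 1.194 on the log2 scale. For Gsta2 the gap was 1.138 in relb-/- and 0.768 in crel-/-relb-/- cells. The early differences fell below 0 in 3 of 3 conditions in each case, but the early levels of both genes lay below the median of all intensities, so the early differences carry no direction and no change of sign is read from them. The gaps between early and late were not tested.

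The Aldh3a1 difference of relb-/- from WT at 24 h with CpG was 0.162, far below the other 6 conditions, which lay between 0.57 and 0.79. It was the only one of 18 sets of 7 differences with such a distant value, and chance gives one in about 5% of sets. The levels behind it were 59.2 and 52.9, both close to the median of all intensities.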

How the results depend on the processing

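Each difference of the 5 genes was recomputed as the mean over all its pairs. The alternatives were background correction with normexp, cyclic loess, an offset of 16 before the log and leaving out a pair of arrays. No mean changed sign, apart from those smaller than their own SD, which carry no direction. Those included Gsta1, Gsta2 and Adh7 in each knockout against WT over 7 conditions. The genotype differences at 8 and 24 h alone were not put through these changes of processing. Differences moved by more than their SD for Gsta3 probe 1 (2.80 at 8 h and 4.38 at 24 h with normexp, 4.48 at 24 h with the offset) and Aldh3a1 (-3.84 at 24 h with both). With genotype alone in the fit, the genes called between relb-/- and WT, crel-/-relb-/- and WT, and the knockouts numbered 198, 370 and 491 over all genes, against 1236, 1629 and 2099, and 1, 4 and 5 in the lists, against 15, 27 and 30. This fit leaves the variation between conditions in the residual. Leaving out 1 array, calls at 1 h ranged from 65 to 183 over all genes (118 with all arrays) and from 2 to 7 in the lists (6). Calls between the agents ranged from 140 to 283 (239) and from 3 to 9 (9). At 1 h the all-gene count was 77, 65 and 69 without the 0 h array of WT, relb-/- and crel-/-relb-/- cells, and 183 without that of crel-/-relb-/- cells given CpG for 24 h. Between the agents it was 150 and 149 without WT CpG at 1 and 8 h, 140 without WT Pam3CSK4 at 1 h, 146 and 155 without relb-/- CpG and Pam3CSK4 at 1 h, 145 and 156 without crel-/-relb-/- CpG at 1 and 8 h, and 147 and 140 without crel-/-relb-/- Pam3CSK4 at 1 and 8 h. List calls at 1 h were 4 with no filter on dim probes, and list calls between relb-/- and WT ranged from 10 (without relb-/- Pam3CSK4 at 24 h) to 22 (without crel-/-relb-/- CpG at 24 h) when 1 array was left out. The other alternatives kept each count within 1.5 times. Arrays were matched by condition, but no pairing by animal or culture was possible because the labels carry no replicate numbers. Without detection p-values, brightness over the median of all values was the only measure of signal over background, which limits what can be said of dim probes such as Gsta3 probe 2.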

Other observations

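Genes that carry and convert retinoids, the substrates of Adh7, changed about as often as all genes did. Of 17 tested, 3 rose and 3 fell at 24 h, beside 16.9% and 15.0% of all genes, with a median log2 difference of 0.04 (limma). Rbp4, the retinol carrier, fell by 0.94 ± 0.15 (SE, adjusted p = 3.03e-05, lower in 6 of 6 combinations), while Rdh11, which reduces retinal, rose by 0.61 ± 0.09 at 8 h (adjusted p = 3.37e-05). Against WT, Rbp4 was higher in crel-/-relb-/- cells by 1.07 ± 0.11 (adjusted p = 7.27e-07, higher in 7 of 7 conditions), and Rdh11 was lower by 0.27 (adjusted p = 0.0126). Rarb, a retinoic acid receptor, was higher in crel-/-relb-/- than in relb-/- cells by 0.39 (adjusted p = 0.00396).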
